A study of Mus musculus with 8 samples.

Results

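Slc17a6, Slc17a7 and Slc17a8, Slc32a1, Gad1 and Gad2, Slc18a2 and Slc18a3, Th and Ddc encode the proteins that set which small transmitter a neuron makes and packs into vesicles. The 10 genes were taken by symbol, out of 48315 symbols, from tables of ribosome footprints in mouse dorsal root ganglia (DRG), where the somata of sensory neurons lie. All 10 were found, each as 1 row. There were 8 libraries, 4 labelled female and 4 labelled male, numbered 1 to 4 within each label. The mice in both groups were wild-type, of a strain labelled SW, and had received saline. Their age is not given in the sources used here, nor whether a library is 1 animal or a pool, so the spread that the p-values measure may be technical.

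A neuron that releases glutamate loads it into vesicles with one of the vesicular glutamate transporters: Slc17a6 encodes VGLUT2, Slc17a7 VGLUT1 and Slc17a8 VGLUT3. A neuron that releases GABA makes it with the glutamate decarboxylases GAD67 (Gad1) and GAD65 (Gad2) and loads it, or glycine, with VGAT (Slc32a1). Catecholamine synthesis starts with tyrosine hydroxylase (Th), goes on with the aromatic amino acid decarboxylase (Ddc), and the product is loaded by VMAT2 (Slc18a2); acetylcholine is loaded by VAChT (Slc18a3). Mouse sensory neurons are mostly glutamatergic. Th marks their C low-threshold mechanoreceptors, which sense light touch and also use VGLUT3, and VGLUT1 is known from the large myelinated ones.

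Levels are in CPM, reads per 1000000 reads assigned to genes, with no correction for gene length. The libraries held between 3697686 (male 1) and 12714554 (male 3) assigned reads, so the level that 3 reads would give lay between 0.236 and 0.811 CPM; these floors cover counting error only. The tissue label was matched by sensory neuron markers, which summed to between 7656 and 11434 CPM over 8 genes. Skeletal muscle markers (4 genes) also summed to between 2202 and 6216 CPM. In 3 libraries the sex-linked genes contradicted the label. Ddx3y, Eif2s3y, Kdm5d and Uty, all Y-linked, summed to 121 CPM in female 1, 138 CPM in female 3 and 2.70 CPM in male 1, against at most 0.351 CPM in the other female and at least 92.5 CPM in the other male libraries. A library is therefore named by its label and number, and every difference below is between labels. Female 1 and female 3 were close to each other: 1.26% of coding genes differed between them at p below 0.001 in a chi-square test on reads, against 11.2% to 38% in every other pair.

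Slc17a6 (chromosome 7, 51622006 to 51671119, plus strand, GRCm38) was the most abundant of the 10 genes in all 8 libraries. It was at 228, 170.1, 226 and 183 CPM in female 1 to 4 and at 149, 174, 199 and 192 CPM in male 1 to 4. The labels overlapped, and the highest library was 1.53-fold above the lowest, male 1. Slc17a7 (chromosome 7, 45163949 to 45176142, plus strand) was the steadiest of the 10, with a coefficient of variation of 8.70% over the 8 libraries. It was at 79.6, 77.2, 75.3 and 64.6 CPM in the female libraries and at 79.5, 87.5, 73.4 and 72.4 CPM in the male ones. Slc17a8 (chromosome 10, 89574020 to 89621253, minus strand) was far lower, at 4.19, 2.81, 3.995 and 4.43 CPM in female 1 to 4 and 2.70, 2.37, 3.38 and 2.06 CPM in male 1 to 4. Its reads numbered between 10 and 46 in a library, so counting error is large for it.

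**Figure D1:**
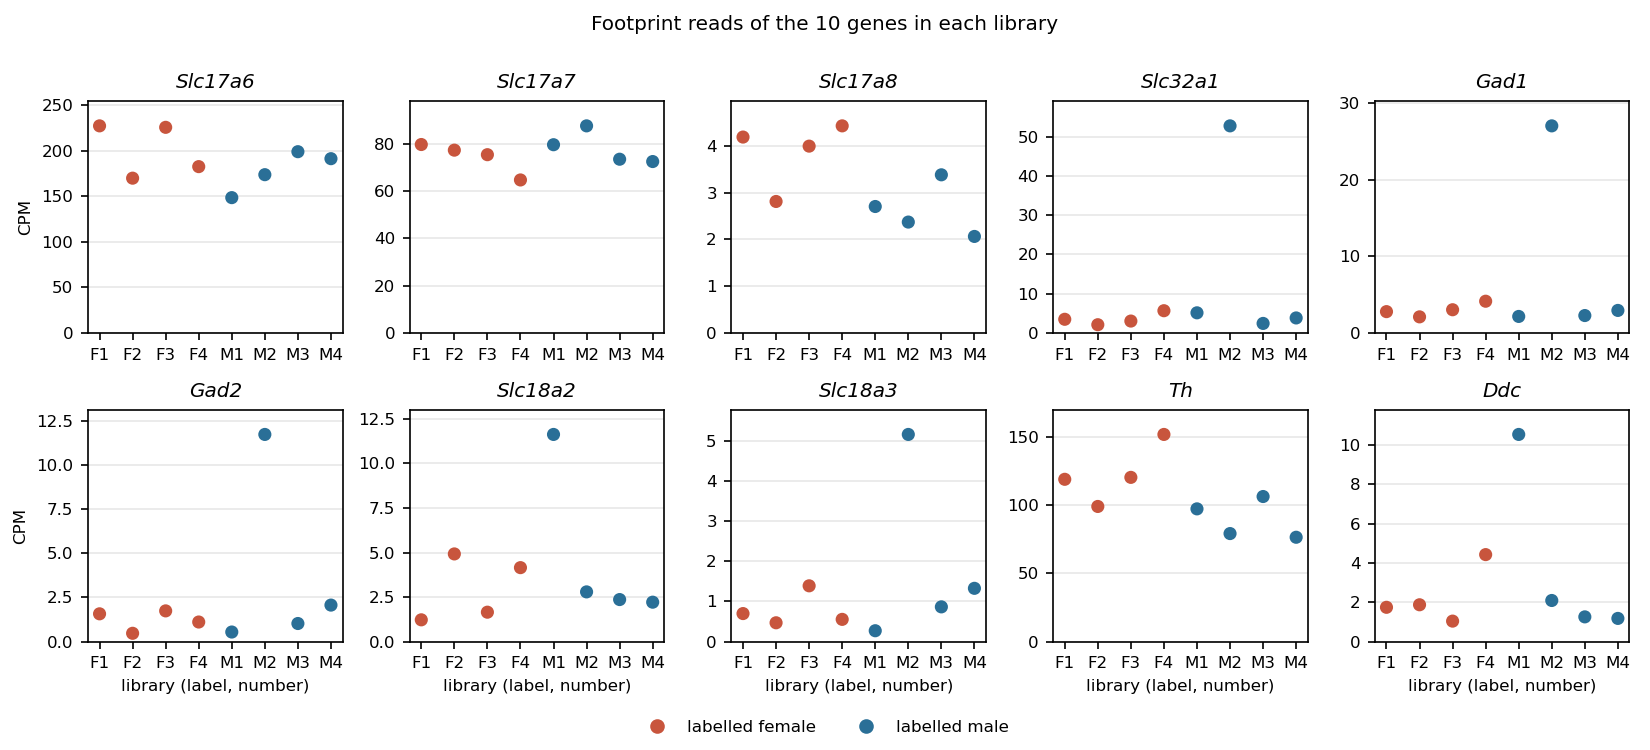
Reads of each of the 10 genes (CPM, linear axes that start at 0 and differ between panels) in the 4 libraries labelled female (F1 to F4) and the 4 labelled male (M1 to M4), 1 point per library. Slc32a1, Gad1, Gad2 and Slc18a3 are highest in M2 and Slc18a2 and Ddc in M1, while Slc17a6, Slc17a7 and Th have no library far above the rest.

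Within the vesicular glutamate transporters, Slc17a6 held 70.3% ± 3.63 of the reads (SD, n = 8), Slc17a7 28.5% ± 3.76 and Slc17a8 1.20% ± 0.298. Coding lengths of the 3 genes are nearly equal, at 1746, 1755 and 1803 bases, so these shares are close to shares per length. The share of Slc17a6 was lowest in male 1, at 64.4% (95% Wilson interval 61.1 to 67.5), and highest in female 3, at 74.0% (72.6 to 75.5). Male 2 was the next lowest, at 65.9% (63.8 to 68.1). The intervals cover counting error only. The sensory neuron markers, summed, were lowest in male 1 too (7656 CPM, against 8957 to 11434 CPM in the other libraries); their part in the share was not tested.

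**Figure D2:**
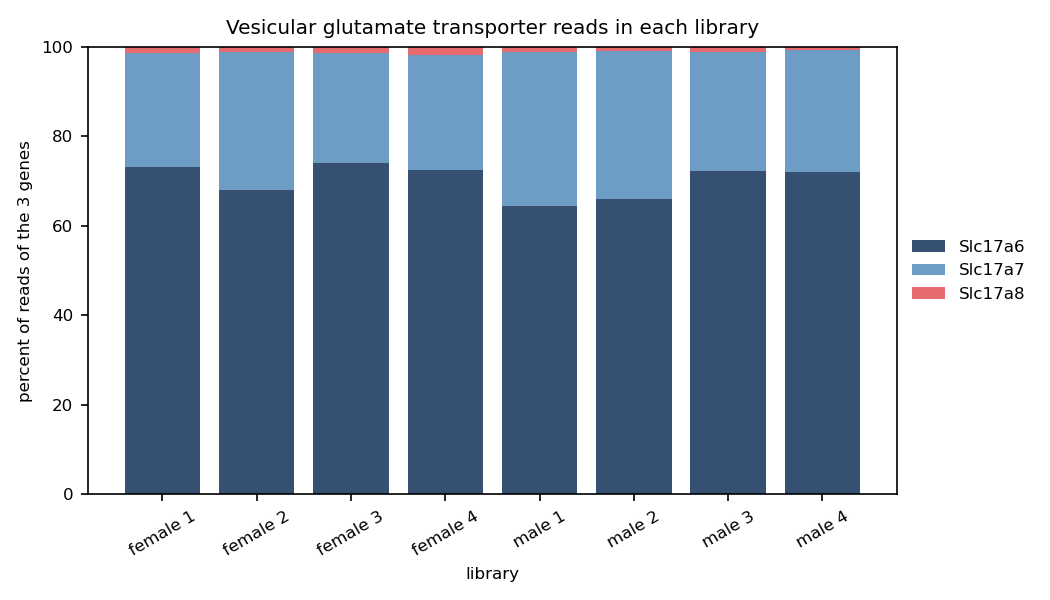
Reads of Slc17a6, Slc17a7 and Slc17a8 as a percent of the reads of all 3 genes (y axis) in each library (x axis), stacked bars. Slc17a6 holds between 64.4% and 74.0% and Slc17a8 at most 1.76% of them.

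Th (chromosome 7, 142892752 to 142931128, minus strand) was the most abundant of the monoamine genes. It was at 119, 99.1, 120 and 152 CPM in female 1 to 4 and at 97.4, 79.2, 106 and 76.5 CPM in male 1 to 4. Female 4 was the highest and male 4 the lowest, and the labels overlapped between 99.1 and 106 CPM. Other markers of C low-threshold mechanoreceptors were present: Gfra2, a GDNF family receptor, was at 231 ± 13.7 CPM (SD, n = 8), P2ry1, a purine receptor, at 37.5 ± 5.41 CPM, Zfp521, a zinc finger protein, at 22.3 ± 3.97 CPM and Fam19a4, a secreted protein, at 9.30 ± 2.82 CPM. In bulk tissue, fewer cells of a type and less RNA per cell cannot be told apart.

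Ddc and Slc18a2, which act after Th, followed another pattern and were highest in male 1. Ddc (chromosome 11, 11814101 to 11898144, minus strand) was at 1.75, 1.87, 1.04 and 4.43 CPM in female 1 to 4 and at 10.5, 2.09, 1.26 and 1.18 CPM in male 1 to 4. Male 1 was 2.38-fold above female 4, the next highest library, and its value rests on 39 reads. Slc18a2 (chromosome 19, 59260896 to 59296012, plus strand) was at 1.22, 4.92, 1.65 and 4.15 CPM in female 1 to 4 and at 11.6, 2.79, 2.36 and 2.21 CPM in male 1 to 4, where male 1 held 43 reads. It was 2.36-fold above female 2, the next highest. Of 14079 coding genes that reached a mean of 1 CPM, 0.17% were at least 2-fold higher in male 1 than in every other library, and Ddc and Slc18a2 were among them. Th, at 97.4 CPM in male 1, lay inside the range of the other libraries. Reads of Ddc were thus 39 of the 399 reads of Th and Ddc in male 1, and Th made up 90.2% (95% Wilson interval 86.9 to 92.8) there, against 97.2% to 99.1% in the other libraries.

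Markers of sympathetic neurons were highest in the same library. Dbh, which turns dopamine into noradrenaline, was at 45.4 CPM in male 1, 8.58 CPM in female 4, 3.28 CPM in female 2 and at most 0.885 CPM in the other 5, and it was listed at 0 in female 1. Slc6a2, the noradrenaline transporter, was at 60.8 CPM in male 1, 12.9 CPM in female 4 and between 1.74 and 6.09 CPM in the others. Of the 7 listed sympathetic markers other than Th, 4 were highest in male 1, among them the transcription factors Phox2a at 1.62 CPM and Hand2 at 1.08 CPM, each with few reads. Their sum was 114 CPM in male 1 and between 6.21 and 10.2 CPM in the other male libraries, and between 4.95 and 25.7 CPM in the female ones. Mast cells also express Slc18a2, and their other 7 markers summed to 126 CPM in male 1 and 169 CPM in male 2, with between 88.2 and 138 CPM in the rest. Liver also makes Ddc, and Alb, the albumin gene, chosen after its values were seen, was at 115 CPM in male 1 and at most 12.0 CPM elsewhere. The part of these cell types in the levels of Ddc and Slc18a2 was not tested.

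Th, Slc18a2 and Ddc serve 1 pathway and yet the 3 genes did not share a library of highest level. The 300 bases around a start of each are shown as a description, from a reference genome that is the same for every library. They run from 250 bases before to 50 after the start on GRCm38.p6 (RefSeq), 5′ to 3′ on the strand of the gene. Capitals mark the cAMP response element TGACGTCA, the TATA box TATAAA, the GC box GGGCGG and the CAAT box CCAAT, which do not overlap one another in these windows and were searched on both strands. Where a match is on the other strand, the capitals read as its reverse complement.
Th promoter: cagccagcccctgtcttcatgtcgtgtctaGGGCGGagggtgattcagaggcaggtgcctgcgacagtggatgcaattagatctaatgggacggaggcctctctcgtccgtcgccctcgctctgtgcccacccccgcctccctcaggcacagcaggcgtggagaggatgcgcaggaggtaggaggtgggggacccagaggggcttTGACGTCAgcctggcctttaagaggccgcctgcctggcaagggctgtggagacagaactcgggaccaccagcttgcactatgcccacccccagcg
Slc18a2 promoter: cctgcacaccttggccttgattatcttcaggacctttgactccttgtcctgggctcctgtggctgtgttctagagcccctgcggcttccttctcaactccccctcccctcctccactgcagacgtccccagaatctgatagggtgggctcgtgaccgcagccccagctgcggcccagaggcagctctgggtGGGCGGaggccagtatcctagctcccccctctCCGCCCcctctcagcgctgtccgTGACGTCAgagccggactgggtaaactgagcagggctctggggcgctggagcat
Ddc promoter: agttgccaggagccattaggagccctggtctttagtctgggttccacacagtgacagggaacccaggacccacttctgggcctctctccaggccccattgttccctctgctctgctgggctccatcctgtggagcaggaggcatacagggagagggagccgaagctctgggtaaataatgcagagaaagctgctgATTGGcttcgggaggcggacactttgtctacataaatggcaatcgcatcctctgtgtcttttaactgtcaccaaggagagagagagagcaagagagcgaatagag
These windows lie at chr7:142899946-142900245 (minus strand) for Th, chr19:59260628-59260927 (plus strand) for Slc18a2 and chr11:11890359-11890658 (minus strand) for Ddc. A single start was searched for each gene, the nearest to an annotated transcript start, while Ddc, Slc17a6 and Slc17a8 have 2 listed starts. The Th and Ddc windows lie inside their genes, which reach 142931128 and 11898144. TGACGTCA stood in the windows of Th, from position -45 relative to the start, and of Slc18a2, from position -4, and in those of none of the other 8 genes. It is in 1.88% of all promoters of the same length, and GGGCGG, which is in 35.9% of them, stood in both windows too. The Ddc window held CCAAT on the strand opposite to the gene (printed as ATTGG), which is in 37.9% of all promoters. A match is a description of the letters and not a test of a factor.

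The genes of GABA synthesis and loading, all on the plus strand of chromosome 2, were highest in male 2. Slc32a1 (158610767 to 158615748) was at 3.49, 2.11, 3.04 and 5.67 CPM in female 1 to 4 and at 5.14, 52.7, 2.44 and 3.83 CPM in male 1 to 4. Male 2, with 378 reads, was 9.29-fold above the next library, and the other 7 lay between 2.11 and 5.67 CPM. Gad1 (70553072 to 70602014) was at 2.79, 2.11, 3.04 and 4.15 CPM in the female libraries and at 2.16, 27.1, 2.28 and 2.95 CPM in the male ones. Male 2 was 6.52-fold above the next library. Gad2 (22622205 to 22693874) was at 1.57, 0.469, 1.74 and 1.11 CPM in female 1 to 4 and at 0.541, 11.7, 1.02 and 2.06 CPM in male 1 to 4, again 5.68-fold above the next. In the 7 libraries other than male 2, Gad2 rested on between 2 and 20 reads. Of the coding genes that reached a mean of 1 CPM, 0.618% were at least 2-fold higher in male 2 than in every other library. Slc32a1, Gad1, Gad2 and Slc18a3 were among them. Slc18a3 reached that mean only through male 2, as its mean was 0.796 CPM without it.

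Gad1 held 69.8% (95% Wilson interval 64.2 to 74.9) of the reads of Gad1 and Gad2 in male 2. In the other libraries it held between 58.8% and 81.8%, from at most 55 reads each, and the interval in every one of them overlapped that of male 2. Slc32a1 made up 16.7% (15.2 to 18.3) of the reads of Slc32a1 and the vesicular glutamate transporters in male 2 and between 0.836% and 2.203% elsewhere. The strand setting of the counting is not given here. Gm14205, an antisense gene that overlaps Slc32a1, was at 5.58 CPM in male 2 and at most 0.692 CPM elsewhere, and its reads and those of Slc32a1 cannot be told apart without strand. Gad1-ps, a pseudogene of Gad1, was at most at 0.419 CPM.

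Slc18a3, the acetylcholine loader, was the rarest of the 10. It was at 0.698, 0.469, 1.39 and 0.554 CPM in female 1 to 4 and at 0.270, 5.16, 0.865 and 1.33 CPM in male 1 to 4. Male 2 held 37 of its 86 reads, and male 1 held 1 read. The mean without male 2 was 0.796 CPM, so Slc18a3 passed the minimum mean of 1 CPM only through male 2. Its gene (chromosome 14, 32462438 to 32464850, minus strand) lies inside Chat on the same strand, so reads could be shared between them. Chat, which makes acetylcholine, was at 2.37 CPM in male 2 and at most 1.05 CPM elsewhere, and Slc5a7, the choline transporter of cholinergic neurons, at 15.8 CPM against at most 7.52 CPM.

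Markers of spinal cord cells were highest in male 2 as well. All 7 listed glial markers of the spinal cord were highest there and summed to 602 CPM, against 209 to 249 CPM in the other male and 219 to 272 CPM in the female libraries. Slc1a2, the glutamate transporter of astrocytes, was at 139.9 CPM in male 2 and between 16.1 and 27.7 CPM elsewhere. Mobp, a myelin protein of oligodendrocytes, was at 25.1 CPM and at most 3.87 CPM elsewhere. Among inhibitory neuron markers, Slc6a5, the glycine transporter of glycinergic neurons, was at 90.7 CPM in male 2 and at most 7.37 CPM elsewhere. The transcription factors Pax2, Lhx1 and Lhx5 were at 1.53, 0.419 and 0.558 CPM in male 2, each also its highest library. Each rests on few reads there. Lhx1 was at the level that 3 reads would give, and Pax2 reached 1.22 CPM in another library. The sensory neuron markers summed to 9447 CPM in male 2, inside the range of the other libraries. The part of spinal cord cells in the levels of Slc32a1, Gad1, Gad2 and Slc18a3 was not tested.

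**Figure D3:**
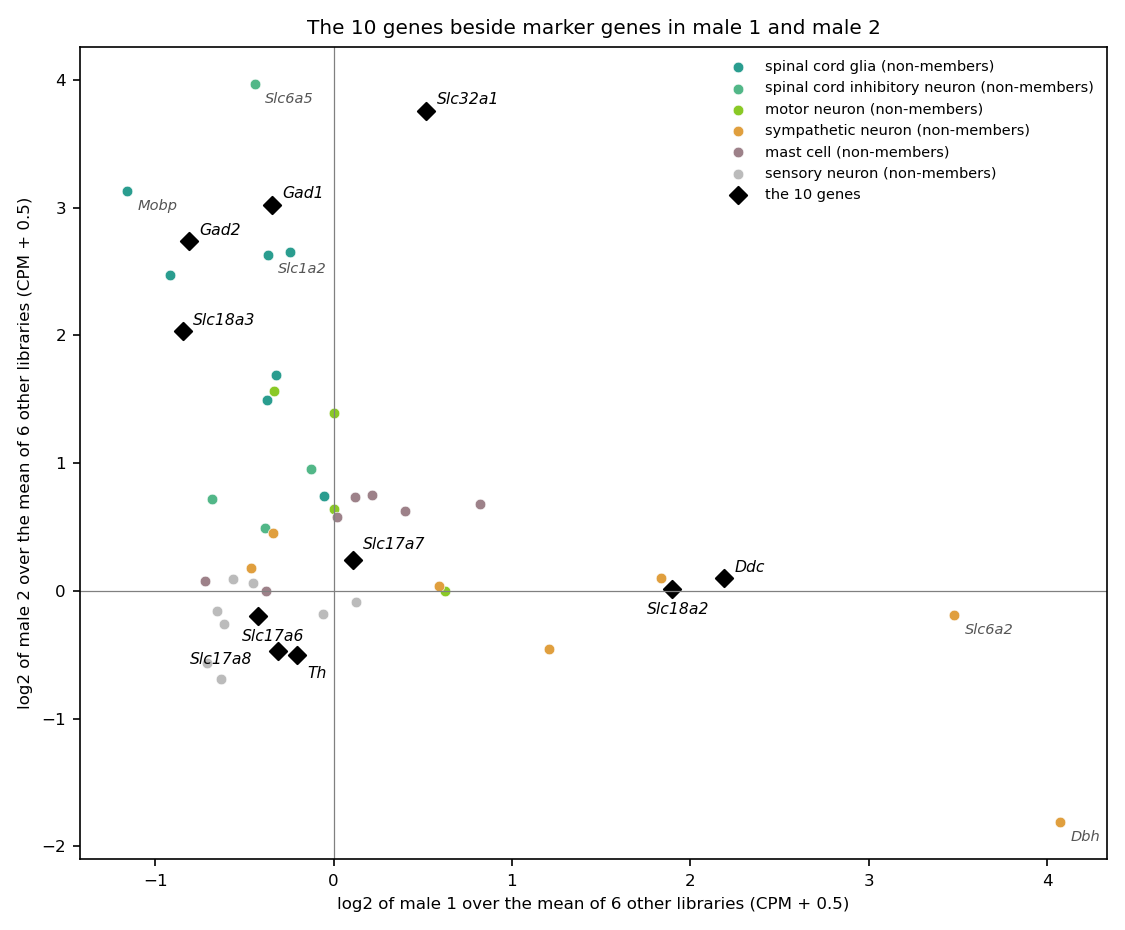
Each point is a gene, placed by its log2 ratio of CPM + 0.5 in male 1 (x axis) and in male 2 (y axis) to the mean of the 6 other libraries; diamonds are the 10 genes and circles are marker genes by list. Slc32a1, Gad1, Gad2 and Slc18a3 lie high on the y axis beside Slc6a5, Mobp and Slc1a2, and Ddc and Slc18a2 lie to the right on the side of Dbh and Slc6a2.

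The windows of Slc32a1, Gad1 and Gad2, the genes of GABA synthesis and loading, are shown in the same way. Slc18a3 was highest in male 2 too, and its window is not shown. Capitals have the same meaning as above.
Slc32a1 promoter: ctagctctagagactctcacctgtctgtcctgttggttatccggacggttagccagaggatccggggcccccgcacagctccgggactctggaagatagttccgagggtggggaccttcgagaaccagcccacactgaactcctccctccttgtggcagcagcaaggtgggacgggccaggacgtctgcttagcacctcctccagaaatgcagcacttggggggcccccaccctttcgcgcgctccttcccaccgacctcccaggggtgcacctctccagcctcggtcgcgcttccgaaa
Gad1 promoter: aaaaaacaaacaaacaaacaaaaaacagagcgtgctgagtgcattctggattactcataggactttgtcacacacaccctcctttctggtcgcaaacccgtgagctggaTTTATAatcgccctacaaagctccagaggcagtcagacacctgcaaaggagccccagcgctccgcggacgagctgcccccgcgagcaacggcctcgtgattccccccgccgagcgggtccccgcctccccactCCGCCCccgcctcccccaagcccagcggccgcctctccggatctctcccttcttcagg
Gad2 promoter: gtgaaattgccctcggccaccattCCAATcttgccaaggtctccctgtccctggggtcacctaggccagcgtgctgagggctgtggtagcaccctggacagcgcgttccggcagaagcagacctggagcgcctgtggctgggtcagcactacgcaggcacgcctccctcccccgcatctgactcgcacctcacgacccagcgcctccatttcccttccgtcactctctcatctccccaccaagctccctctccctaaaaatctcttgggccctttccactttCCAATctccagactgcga
They lie on the plus strand at chr2:158610508-158610807, chr2:70561879-70562178 and chr2:22622077-22622376 of GRCm38.p6 (RefSeq). The Gad1 window lies inside the gene, which starts at 70553072. The 3 windows shared none of the 4 motifs. All 3 held the E-box CANNTG (N is any base), which was searched too, is not in capitals and is in 72.1% of all promoters. Of the 4 motifs in capitals, the Slc32a1 window held none, and that of Gad2 held CCAAT at 2 places. That of Gad1 held TATAAA on the strand opposite to the gene (in 14.2% of all promoters) and GGGCGG.

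Per kilobase of coding length, means ran from 109 CPM for Slc17a6 to 0.844 CPM for Slc18a3, and Slc17a6, Th and Slc17a7 stood above the rest. Slc17a6 was at 109 ± 15.6 CPM per kilobase (SD, n = 8), rank 1197 of 21665 coding genes. Th was at 71.1 ± 16.4 (rank 1846) and Slc17a7 at 43.4 ± 3.78 CPM per kilobase (rank 2892). Slc32a1 followed at 6.23 ± 11.04 CPM per kilobase, with a median of 2.33. Male 2 alone was at 33.5 CPM per kilobase. Gad1 (median 1.61), Slc18a2 (1.66), Ddc (1.26), Slc17a8 (1.72), Gad2 (0.763) and Slc18a3 (0.492 CPM per kilobase) came after it in the order of the means. Neighbours in that order were compared within libraries by an exact two-sided sign-flip permutation test, whose smallest p with 8 libraries is 0.00781. The order and the test rest on the same values.

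Slc17a6 was above Th by 0.63 ± 0.32 (log2 of CPM per kilobase + 0.1, SD, n = 8) and in 8 of 8 libraries (exact permutation adjusted p = 0.0176 over 9 pairs). Per exonic length, which adds untranslated exons, the direction turned, and Th was above Slc17a6 by 0.33 in 7 of 8 libraries (exact permutation adjusted p = 0.0422). Th was above Slc17a7 by 0.68 ± 0.42 and in 8 of 8 libraries (exact permutation adjusted p = 0.0176). Without a correction for length that call ended, with 7 of 8 libraries (exact permutation adjusted p = 0.0527). Slc17a7 was above Slc32a1 by 3.75 ± 1.38 (exact permutation adjusted p = 0.0176, 8 of 8 libraries). Slc32a1 was above Gad1 by 0.58 ± 0.44 in 8 of 8 libraries (exact permutation adjusted p = 0.0176), but without length in 6 of 8, being equal in the others (exact permutation adjusted p = 0.0562). With male 2 left out, Slc32a1 and Gad1 were no longer neighbours. Gad2 was above Slc18a3 by 0.47 ± 0.40 in 7 of 8 libraries (exact permutation adjusted p = 0.0422), and the reverse held per exonic length in 8 of 8 (exact permutation adjusted p = 0.0234). The difference of that pair stayed between 0.40 and 0.56 with any 1 library but male 1 left out. With 7 libraries the smallest p of the permutation test is 0.0156, and the call was often lost. It ended without any 1 of female 1, female 3, female 4, male 2, male 3 and male 4. Adjusted p was then between 0.0563 and 0.0844 by the same exact permutation test. The call also ended when female 1 and female 3 were averaged. Without male 1 the genes were no longer neighbours. Gad1 and Slc18a2, Slc18a2 and Ddc, Ddc and Slc17a8, and Slc17a8 and Gad2 did not differ beyond their spread (exact permutation adjusted p between 0.171 and 0.914).

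**Figure D4:**
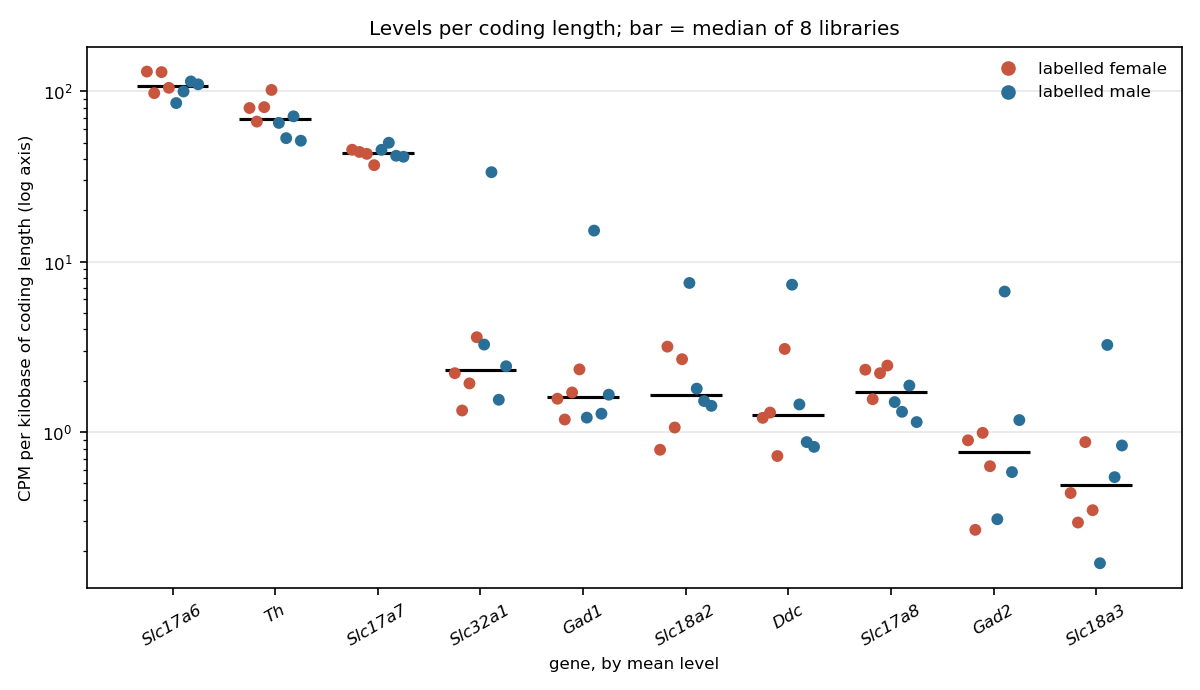
Level per kilobase of coding length (y axis, log scale) of the 10 genes in order of mean, 1 point per library coloured by label, with a bar at the median of the 8 libraries. Slc17a6, Th and Slc17a7 lie between 36.8 and 130.4 CPM per kilobase and the medians of the other 7 genes are at or below 2.33.

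Between the labelled sexes none of the 10 genes passed in limma's test over all genes, on log2(CPM + 1) with Benjamini-Hochberg adjustment. Of the 15720 genes tested, 0 passed (0% of them). With a block for replicate number 27 genes passed (0.172%), and without male 1, female 1 and female 3, whose sex-linked genes contradict the label, 6 passed (0.0382%), in both fits with 0 of the 10 among them. At an unadjusted p under 0.05 there were 2099 genes (13.4%; 11.9% with the higher level in female), and Th was 1 of them, on the female side. That split depended on scaling: it was 1877 genes higher in female and 222 higher in male as deposited, 968 and 1064 with median-ratio scaling, and 1044 and 971 with quantile normalization. With these scalings Th had an unadjusted limma p of 0.120 and 0.0979, so 0 of the 10 were under 0.05. Mitochondrial rRNA took 3.21% to 7.69% of the reads in female and 4.92% to 15.6% in male libraries, and its part in the split was not tested. All 10 genes here had overlapping groups, while 4.55% of the genes tested had not. Over all genes tested, the log2 fold change (female minus male) had a median of 0.15, so a difference of that size is shared by the table. It was 0.00068 with median-ratio scaling and 0.017 with quantile normalization. Of the 10 genes, 3 had a positive value and 7 a negative one, with a median of -0.32.

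Th averaged 123 ± 21.8 CPM over libraries labelled female and 89.9 ± 14.4 CPM over those labelled male (SD, n = 4 each), a log2 fold change of 0.44 (SE 0.16, limma adjusted p = 0.372). Its value ranged from 0.28 to 0.54 over the alternatives, with limma adjusted p from 0.0623 to 0.9995. Markers of C low-threshold mechanoreceptors other than Th and Slc17a8 summed to between 277 and 336 CPM in female and between 285 and 314 CPM in male libraries. Most of that sum is Gfra2, at a log2 fold change of -0.022, while Fam19a4 was at 0.36, Zfp521 at 0.25 and P2ry1 at 0.24, none passing (limma adjusted p between 0.413 and 0.938 for the 4 genes). With Th and Slc17a8, 5 of the 6 markers had a positive value, with a median of 0.31. Slc17a8 was at 3.86 ± 0.718 and 2.63 ± 0.565 CPM, a log2 fold change of 0.42 (SE 0.19, limma adjusted p = 0.375), and was positive in every alternative. Slc17a6 was at 202 ± 29.5 and 178 ± 22.4 CPM (0.17, SE 0.14, limma adjusted p = 0.561), and Slc17a7 at 74.2 ± 6.61 and 78.2 ± 6.94 CPM (-0.075, SE 0.12, limma adjusted p = 0.773). Without male 1, female 1 and female 3, Slc17a6 was at -0.091.

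The other 6 genes had negative values. Those of Slc32a1, Gad1, Gad2 and Slc18a3 moved towards 0 or above it without male 2, and away from 0 without male 1. Those of Slc18a2 and Ddc moved above 0 without male 1, and away from 0 without male 2. Slc32a1 averaged 3.58 ± 1.51 CPM under the female label and 16.04 ± 24.5 CPM under the male one (SD, n = 4 each; log2 fold change -0.97, SE 0.70, limma adjusted p = 0.517), and the SD of the male group exceeds its mean. Gad1 was at -0.56, Gad2 at -0.62 and Slc18a3 at -0.47 (limma adjusted p = 0.660, 0.593 and 0.595). Without male 2, Gad1 was at 0.20, Gad2 at 0.026, Slc32a1 at -0.085 and Slc18a3 at -0.018. Slc18a2 was at -0.38 and Ddc at -0.25 (limma adjusted p = 0.701 and 0.828), and at 0.088 and 0.30 without male 1. With both libraries left out, Gad2 was at -0.20 and Slc18a3 at -0.26, and the other 4 were above 0.

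**Figure D5:**
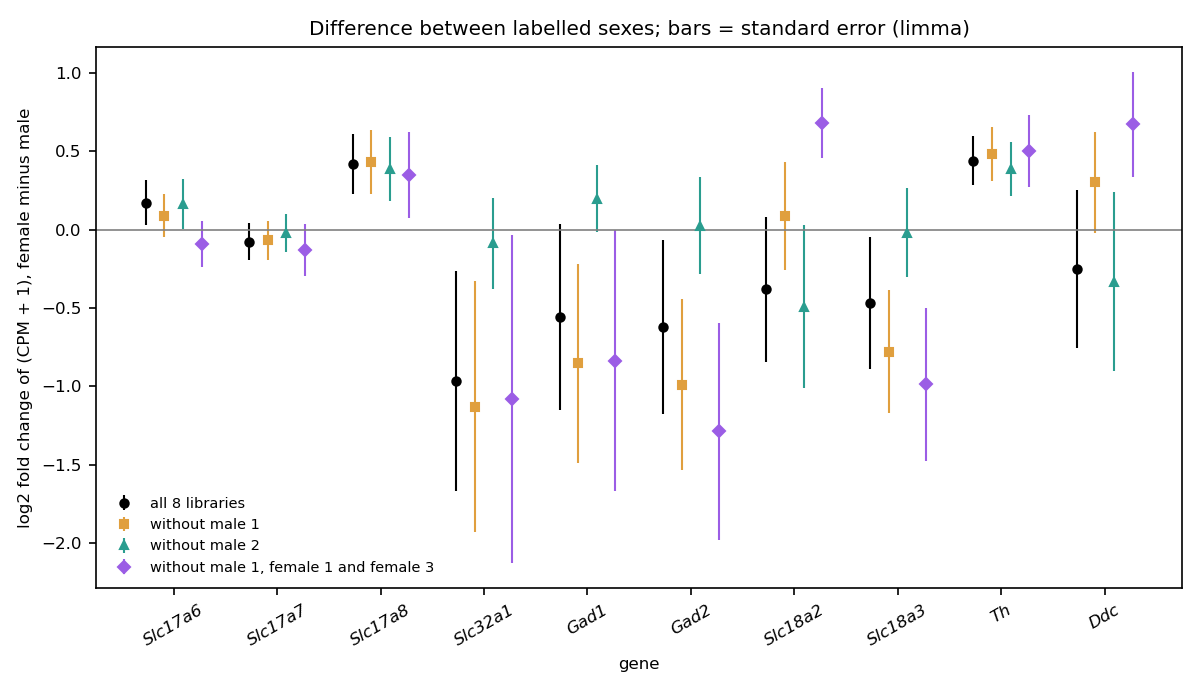
Log2 fold change of CPM + 1, female minus male as labelled (y axis), of each gene (x axis) with all 8 libraries and with libraries left out, error bars being the standard error from limma. Values of Slc32a1, Gad1, Gad2 and Slc18a3 move towards 0 or above it without male 2, and those of Slc18a2 and Ddc rise above 0 without male 1.

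Other genes of these routes were read from lists of 57 genes, 47 of which reached a mean of 1 CPM. None passed between the labels in limma without a block. An unadjusted p under 0.05 was reached by 9 of 47, against 13.4% of all genes tested, and the median log2 fold change was 0.0043, against 0.15 over all genes. Of the 14 genes of glutamate supply and clearance, led by the amino acid transporter Slc38a2 (570.4 ± 71.2 CPM, SD, n = 8), Glul, the glutamine synthetase of glia (272 ± 46.5 CPM), and Got1, an aspartate aminotransferase (221 ± 38.04 CPM), 8 were higher in female and 6 in male, with a median log2 fold change of 0.12. In male 2, 7 of the 14 were at their highest.

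The GABA and glycine list showed the library pattern of Slc32a1. Of its 8 genes, 7 were highest in male 2, and the sum was 588 CPM there against 213 to 234 CPM elsewhere. Slc6a11, the GABA transporter GAT3, was at 79.7 CPM in male 2 and at most 12.7 CPM elsewhere. Abat, which breaks GABA down, was steadier, at 89.9 ± 8.64 CPM (SD, n = 8). Slc6a9, the glial glycine transporter, was at 82.7 CPM in male 2 and at most 20.6 CPM elsewhere, and Slc6a13 was at 58.03 CPM in male 2 and at most 45.9 CPM elsewhere. Median log2 fold change of the list was -0.40, with 6 of 8 lower in female and none passing.

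The acetylcholine list was led by Slc44a2 and Slc44a1, choline transporters of many cells, at 221 ± 20.6 and 128 ± 17.7 CPM (SD, n = 8), and by Ache, acetylcholinesterase, at 107 ± 10.8 CPM. All 6 genes tested were lower in female, with a median log2 fold change of -0.19 and none passing (smallest limma adjusted p = 0.372). In the monoamine list the most abundant were the monoamine oxidase Maoa (63.97 ± 9.57 CPM) and the aldehyde dehydrogenase Aldh1a1 (63.1 ± 8.83 CPM). Enzymes of serotonin synthesis, Tph1 and Tph2, were at most 1.03 and 1.56 CPM, and the dopamine transporter gene Slc6a3 at most 0.837 CPM. Th needs the pterin cofactor. Over all genes tested the median log2 fold change was 0.15. All 6 listed genes of the cofactor's supply were higher in female, with a median of 0.33 and none passing. Among them Qdpr, which recycles the cofactor, was at 57.5 ± 13.1 CPM (log2 fold change 0.48, limma adjusted p = 0.372), Spr at 33.8 ± 4.30 CPM and Pcbd1 at 13.4 ± 3.12 CPM. Pts, which acts in the synthesis, was at 7.22 ± 2.33 CPM.

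Both pyridoxal cofactor enzymes, on which Gad1, Gad2 and Ddc depend, were higher in female without passing. Their median log2 fold change was 0.37, against 0.15 over all genes tested. Pdxk, pyridoxal kinase, was at 24.8 ± 4.30 CPM (SD, n = 8). In the rest of the SLC17 family, Slc17a5, the lysosomal sialic acid carrier, was at 31.7 ± 2.67 CPM. Slc17a9, which loads ATP, was at most at 0.885 CPM, and 4 of the 6 were under the level of 3 reads in every library.

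The genes whose pattern over the 8 libraries was most like that of a member, by Pearson r of log2(CPM + 1) among 9236 other coding genes that reached a mean of 10 CPM, were sought for the 3 members at or above that mean. They were Iars, a tRNA synthetase (r = 0.995, Spearman rho = 1), Asic2, an acid-sensing channel (r = 0.990), and Ank2, an ankyrin (r = 0.987), for Slc17a6. For Slc17a7 they were Furin (r = 0.977), Rnf145 (r = 0.976) and Sema4a (r = 0.974), which fell to between 0.869 and 0.875 without the libraries farthest from the median. For Th they were Pnp (r = 0.970), Coq5 (r = 0.949) and Nudt5 (r = 0.948), which were at 0.959, 0.926 and 0.859 without the libraries farthest from the median. An r over 0.9 was shared by 653 genes for Slc17a6, 23 for Slc17a7 and 12 for Th. The libraries share differences in composition and depth, female 1 and female 3 are close to each other, and r is the largest of many, so these values are descriptions.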

How the data were processed

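Ribosome-bound RNA from DRG was depleted of ribosomal RNA, trimmed to footprints and sequenced, per the labels' protocols. The submitters' processing notes name Bowtie2 2.2.9, Cufflinks 2.2.1, FastQC 0.11.5 and TopHat2 2.1.1 and the builds GRCm38.p4 and mm10, without their roles. The authors deposited values named TPM that are CPM: each column sums to 1000000, and 95.7% to 96.4% of the values above 0 are, to within 0.01, whole multiples of a step set by the library. Reads were taken as CPM divided by that step, rounded.

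The 10 genes and the lists of other genes were chosen with earlier results of these data known. Labels were compared with limma 3.58.1 (R 4.3.3) on log2(CPM + 1), with an intensity trend, over 15720 genes that reached a mean of 1 CPM over the 8 libraries and with Benjamini-Hochberg adjustment at 0.05; the fit was tested on simulated data. Fold changes on this scale understate the change of low genes. Neighbouring members were compared in log2(CPM per kilobase + 0.1) by exact sign-flip permutation. Statistics used Python 3.11.15 and scipy 1.17.1. Coding lengths and positions come from the GENCODE annotation of GRCm38, which matched 99.2% of the gene IDs, and 27025 promoters were searched for motifs. Precision was limited by depth, with 3697686 to 12714554 assigned reads a library.

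From each list, the text names the 3 genes of highest mean and the genes that define a route, some of which are not reported here; Slc6a11, Slc6a9, Pts, Mobp, Pax2, Lhx1, Lhx5, Phox2a, Hand2, Slc6a3, Slc17a9 and the overlapping genes were named after their values were seen. Libraries of the same number deviated together from their group means, which was read as pairing. The r over genes was 0.288, 0.492, 0.531 and 0.592 for numbers 1 to 4. For number 1 the pairing is in doubt, as the male library most like female 1 by this r was male 3. Female 1 and male 1 differed in 38% of coding genes at p below 0.001 in the chi-square test on reads. For female 1 and male 3 the share was 14.9%. What the number stands for is not in the labels. Alternatives were other pseudocounts, filters, scalings and weights, the replicate block, and libraries left out or averaged.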

Additional observations from a re-analysis of the deposited data

Results flagged for a closer look

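In groups of 4 libraries, 5 values stood apart from the rest of their group by Dixon's criterion (the gap to the nearest library as a share of the group's range). There were 20 groups, and chance flags about 1 in 20. Slc32a1 was at 52.7 CPM in male 2, with the nearest male library at 5.14 CPM. Gad1 was at 27.1 CPM in male 2, with the nearest at 2.95 CPM. Gad2 was at 11.7 CPM in male 2, with the nearest at 2.06 CPM. Slc18a2 was at 11.6 CPM in male 1, with the nearest at 2.79 CPM. Ddc was at 10.5 CPM in male 1, with the nearest at 2.09 CPM. All 5 lie in 2 libraries, whose marker levels stand beside them in the text above, and the cause was not tested.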

How the results depend on the processing

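The number of the 10 genes that passed between labels was 0 in every alternative run. With the replicate block, which treats libraries of the same number as pairs, 27 of all genes passed. Without male 1, female 1 and female 3 the count was 6, against 0 with all libraries and no block. For the 10 genes the block changed no call. Fold changes turned sign without male 1, female 1 and female 3 for Slc17a6 (-0.091), Slc18a2 (0.68) and Ddc (0.67). Without male 1 and male 2, an alternative chosen after seeing the data, they turned for Slc17a7 (0.021), Slc32a1 (0.11), Gad1 (0.14), Slc18a2 (0.16) and Ddc (0.46), while Gad2 (-0.20) and Slc18a3 (-0.26) stayed negative. Leaving out 1 library at a time gave -0.85 to 0.20 for Gad1, -0.99 to 0.026 for Gad2, -0.61 to 0.088 for Slc18a2 and -0.53 to 0.30 for Ddc; the positive ends came without male 2 for the first pair and without male 1 for the second. Neighbouring pairs that differed numbered 5 per kilobase and 3 from CPM without length. Tests of a count model on recovered reads were not run, because only 95.7% to 96.4% of the values above 0 were whole reads. Depth limits Slc18a3, Ddc, Gad2, Slc18a2 and Slc17a8 most, with 86, 148, 154, 206 and 210 reads over all libraries. The cause of these changes was not tested.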

Other observations

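Male 1, female 4 and female 2 had the highest levels of Dbh, at 45.4, 8.58 and 3.28 CPM, and of Slc18a2, at 11.6, 4.15 and 4.92 CPM. They were also the libraries in which Xist, the X-inactivation transcript, was above 6 CPM, at 10.6, 6.92 and 7.45 CPM; the other 5 had 0.558 CPM or less. This grouping was noticed in the data and was not tested.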
